A study of Jatropha curcas with 4 samples.

Results

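The gene models of the Jatropha genome that were annotated as pseudogenes were examined in whole roots. The members are the coding models of release 4.5 whose note holds the word pseudo and not the word TE (transposable element). They number 2688 of 57437 models, against 25433 models that carry no note. The level of each was taken from the counts of 4 RNA-seq libraries of Jatropha curcas roots, a Thai local variety grown outdoors in pots. In 2 libraries the plants, 30 d old, had stood for 24 h with water 3 cm above the soil (waterlogging, WS), and in 2 libraries they had stood for 24 h in a container with no water (non-stress, NS). All plants were of this variety, and the libraries were made from poly(A) RNA of roots that the labels describe as pools, with the number of plants in a pool not given. The 7 photosynthesis genes at hand as markers of green tissue had a summed level of 82.3 and 71.4 CPM (counts per 1000000 counts of the library) in NS. In WS it was 62.3 and 35.2 CPM, and none of the 7 was called. These sums are relative to the library totals, without the scaling between libraries used in the comparison below. The treatments are not compared on them. Markers of root cell types were not checked.

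A pseudogene is a copy of a gene that has lost an intact reading frame, by a frameshift, an early stop codon or a missing part. A copy made by reverse transcription of a spliced messenger RNA has no introns and usually no promoter of its own, whereas a copy made by duplication of the DNA can keep the introns and the promoter of its parent and can go on being transcribed. The word pseudo in a draft annotation is a call by the annotators, and a sequencing or assembly error in a working gene can break a reading frame in the same way. The criteria behind the notes are not given in the sources used here, and the models are called pseudo models below.

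Most pseudo models were small and without introns. Of the 2688 models, 1682 (62.6%) had a single coding exon, against 18.1% of the models with no note, and 341 (12.7%) had at least 5. The median summed exon length was 507.5 bases, against 909 bases in models with no note. The note also held the word partial in 2613 of them (97.2%). The summed exon length was a multiple of 3, which an intact and complete reading frame requires, in 1932 pseudo models (71.9%) and in 99.6% of the models with no note. A model cut off at an end need not have such a length, and the share in partial models without pseudo was not taken. All 75 pseudo models that were not also partial had a length that was a multiple of 3. None of the pseudo models carried a prediction score in the annotation, whereas 98.3% of the models with no note did.

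Fewer pseudo models than models with no note gave RNA in roots. A model was taken as expressed when it reached 1 CPM, relative to the summed count of the library, in 2 or more libraries. By this measure 640 of 2688 pseudo models (23.8%) and 13802 of 25433 models with no note (54.3%) were expressed. The low share was not particular to pseudo models. It was 20.6% in the 7223 partial models without pseudo or TE, 18.0% in models noted as short alone and 30.3% in all models. At least 1 read in any library was found for 1044 pseudo models (38.8%). In single libraries between 657 (NS replicate 2, the shallowest) and 856 (NS replicate 1, the deepest) pseudo models had a read, and with all libraries thinned to equal depth between 657 and 699 did. The library totals ranged from 1204502 to 6110438 reads, so that a count of 3 stood for between 0.491 and 2.49 CPM. A pseudo model without reads was thus below detection at this depth. Of the expressed pseudo models, 478 reached 1 CPM in all 4 libraries, 13 in both NS libraries and no WS library (2.03%), and 19 in both WS libraries and no NS library (2.97%). Among models with no note these shares were 2.66% and 1.70%. The last 2 sets had to differ between treatments to pass as they did.

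The share of pseudo models expressed followed the number of exons, over a wider range than in models with no note or in partial models. With a single exon, 138 of 1682 pseudo models (8.20%) were expressed, against 41.8% of the models with no note. With 2 exons the share was 22.6%, with 3 or 4 exons it was 40.3%, and with 5 or more it was 90.0% (307 of 341). Models with no note and at least 5 exons were expressed in 72.7% of cases, so pseudo models were below the models with no note in the first 3 classes and above them in the last one. For partial models that carry neither pseudo nor TE the share went from 12.5% to 40.2% over the same classes. Models are not replicates of a condition, and these shares are given as a description with no test.

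**Figure D1:**
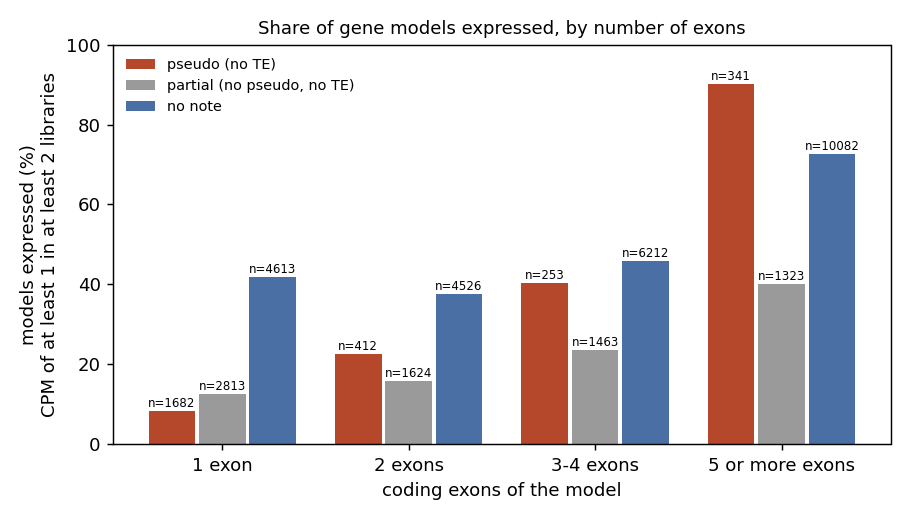
Share of gene models expressed in roots (vertical axis, percent that reached 1 CPM in 2 or more libraries) by number of coding exons (horizontal axis), for pseudo models, partial models without pseudo or TE, and models with no note, with the number of models above each bar. The share of pseudo models goes from 8.20% with a single exon to 90.0% with 5 or more exons.

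Length alone gave a weaker separation. Pseudo models with under 300 bases of exon were expressed in 20.6% of cases, and those with 1200 bases or more in 50.5%. Among single-exon pseudo models the share was 15.7% under 300 bases and 8.74% at 1200 bases or more, whereas in single-exon models with no note it was 62.7% at 1200 bases or more. With 3 or 4 exons and 300 to under 600 bases the pseudo models were expressed more often than models with no note (46.4% and 35.1%), as they were with 5 or more exons and at least 1200 bases (93.1% and 79.1%). No model with no note has under 300 bases of exon. Over the 2124 pseudo models of 300 bases or more the share was 24.7%, and models with no note, weighted to the same classes of exon number and length, had a share of 45.4%.

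The expressed pseudo models had another structure than the others. Of the 640 expressed, 307 (48.0%) had at least 5 exons and 138 (21.6%) had a single exon, while 1544 of the 2048 others (75.4%) had a single exon. The median span from start to end was 2360 bases in the expressed and 546 bases in the others. An exon length that was a multiple of 3 was found in 293 of the expressed (45.8%) and in 1639 of the others (80.03%). The difference held within a single exon (60.1% of the expressed and 80.6% of the others) and with 5 or more exons (31.6% and 47.1%, the latter of 34 models). The expressed pseudo models were thus less often of such a length than the others, in each of these classes. Expressed models overlapped another model in 32 cases (5%), and how reads in shared bases were counted is not given. They stood alone on their scaffold in 6.09% of cases, like 6.34% of the expressed models with no note, against 19.7% of the other pseudo models.

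The word partial marked a further division. Of the 66 models noted as pseudo alone, 34 (51.5%) were expressed, close to the 54.3% of models with no note. Of the 2058 noted as pseudo and partial, 490 (23.8%) were expressed. Among the 555 that were also short, 114 (20.5%) were. Models that were noted as both pseudo and TE, which are not members, were expressed in 18 of 1980 cases (0.909%). In the largest ortholog family of the study, of which 1998 listed Jatropha models were at hand, 1749 carried the note TE without pseudo, and none of its 83 pseudo models and none of its 25 models with no note was expressed.

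The expressed pseudo models were on the whole less abundant per kb than models with no note. Per kb of summed exon length, the median of the mean level over 4 libraries was 15.2 CPM per kb (quartiles 7.02 and 30.9), against 18.5 CPM per kb (7.23 and 46.1) in models with no note. Partial models without pseudo or TE were close to pseudo models, at 15.8 CPM per kb (6.44 and 35.6). With 1 exon the medians of pseudo models and models with no note were 14.8 and 16.2 CPM per kb. They were 17.9 and 18.4 with 2 to 4 exons, and 14.0 and 19.2 with 5 or more. The medians of single libraries were 13.9 and 14.0 CPM per kb in NS and 12.3 and 12.5 CPM per kb in WS for pseudo models, and 18.8, 18.1, 14.6 and 14.7 CPM per kb for models with no note. Each library thus placed pseudo models below models with no note, while the lower quartiles were alike. The medians of single libraries are without scaling between libraries, and the treatments are not compared on them. Whether reads in introns were counted is not given, so levels per kb depend on the length chosen, and per kb of span the medians were 5.97 and 8.43.

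The part of all counts that fell on pseudo models overlapped between the treatments. They took 2.09% and 2.29% of the counts in NS replicates 1 and 2, and 2.07% and 2.25% in WS replicates 1 and 2. The means were 2.19% ± 0.140 in NS and 2.16% ± 0.124 in WS (SD, n = 2 each), and the libraries of both treatments overlapped (p = 0.667, two-sided exact permutation test, in which 2 libraries against 2 cannot give less than 0.333). Without the 10 pseudo models with the highest mean CPM, the shares were 1.79% and 1.89% in NS and 1.60% and 1.62% in WS, lower in both WS libraries (exact permutation p = 0.333, the smallest possible). The 10 models left out held 14.3% and 17.4% of the reads of pseudo models in NS and 23.1% and 28.1% in WS, so leaving them out takes more from WS. The share of models with no note was also lower in WS, at 87.9% and 87.2% (NS) and 85.9% and 85.1% (WS). In bulk roots, fewer cells that make a transcript and less transcript per cell cannot be told apart.

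Within this total, only the single-exon class took a different part in the 2 treatments. Single-exon pseudo models took 7.19% and 10.01% of the reads of pseudo models in NS and 14.1% and 18.5% in WS. Those with 2 to 4 exons took 23.6% and 27.4% in NS and 22.8% and 25.9% in WS. Those with 5 or more exons took 69.2% and 62.5% in NS and 63.1% and 55.7% in WS. The single-exon share was thus higher in both WS libraries than in both NS libraries, whereas the ranges of the other classes overlapped. With 4 models set aside after their values were seen (Jcr4S00043.150, Jcr4S00989.30, Jcr4S01045.120 and Jcr4S03341.10, described below), the other single-exon models took 5.22% and 7.67% in NS and 6.24% and 7.98% in WS, ranges that overlap. The 4 models alone took 1.96% and 2.34% in NS and 7.87% and 10.5% in WS. Setting them aside thus had to take more from WS, and the overlap of the other models is no separate result.

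**Figure D2:**
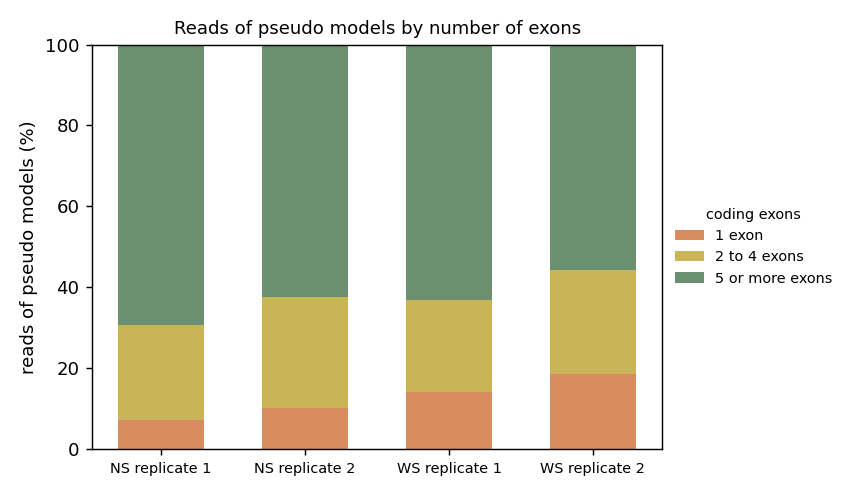
Reads of pseudo models in each library (vertical axis, percent of all reads assigned to pseudo models), divided by the number of coding exons, for the 2 NS and the 2 WS libraries. The single-exon part is 7.19% and 10.01% in NS and 14.1% and 18.5% in WS.

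The pseudo models with the highest level per kb were short. The 10 highest ranged from 281 to 2778 CPM per kb, with exon lengths from 151 to 1116 bases (median 325.5), and 5 of them were also noted as short. Over so few bases a level per kb depends strongly on where the model ends. Jcr4S00958.30, with 2 exons and 371 bases on the minus strand of scaffold Jcr4S00958 from 20879 to 28643, was the most abundant. It had 5791 and 1467 reads (NS) and 4000 and 2509 reads (WS), or 2555, 3283, 2602 and 2671 CPM per kb in the same order. The treatments overlapped (log2FC 0.09, SE 0.41, adjusted p = 0.944 from edgeR). Jcr4S02852.30 (4 exons, 354 bases) had 198 and 396 CPM per kb in NS and 242 and 287 CPM per kb in WS, so its WS libraries lay between its NS libraries.

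In another part of these abundant models the replicates disagreed. Jcr4U35837.10, with 2 exons and 279 bases on sequence Jcr4U35837 from 188 to 545, had 1036 and 2910 CPM per kb in NS and 1458 and 4865 CPM per kb in WS. Jcr4S01360.20, a single exon of 172 bases, had 596 and 1376 CPM per kb in NS and 532 and 1304 CPM per kb in WS. In both, replicate 2 stood over replicate 1 within each treatment by more than the treatments differed. Jcr4S03341.10, a single exon of 195 bases on scaffold Jcr4S03341 from 1075 to 1269, had 947 and 387 reads (NS) and 1777 and 3070 reads (WS). Its TMM-scaled levels were 145 and 293 CPM in NS and 473 and 1292 CPM in WS, so both WS libraries were above both NS libraries, without a call in edgeR (log2FC 2.02, SE 0.59, adjusted p = 0.0964) and with one in DESeq2 (0.0200). Jcr4S00616.100 (3 exons, 359 bases) had 413 and 224 CPM per kb in NS and 287 and 508 CPM per kb in WS, ranges that overlap.

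To ask which pseudo models responded to waterlogging, all 17410 expressed models were compared between WS and NS in edgeR by its quasi-likelihood test, and p-values were adjusted by the Benjamini-Hochberg method over all of them. An adjusted p under 0.05 was reached by 4.37% of all models tested and by 4.7% of the 13802 models with no note. Of the 640 pseudo models, 9 rose and 2 fell in WS, which is 1.72%. Models that rose made up 2.45% and models that fell 1.91% of all models tested, 2.54% and 2.17% of those with no note, and 1.95% and 1.34% of the partial models without pseudo or TE, of which 3.3% were called in all. Changes are given as log2 fold changes of WS over NS (log2FC) with a standard error (SE). With the total library size in place of the trimmed mean of M-values (TMM), 6 pseudo models rose and 7 fell (2.03% called). Of the models with no note, 292 then rose and 388 fell (4.93% called). In both sets fewer models rose and more fell than with TMM. The median log2 fold change of pseudo models was then -0.12 in place of 0.11. That of models with no note was -0.27 in place of -0.04. At an unadjusted p under 0.05, 46 pseudo models were higher and 44 lower in WS, or 14.1% of those tested, against 21.3% of the models with no note.

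The number of calls depended on the libraries used. With NS replicate 1 or NS replicate 2 left out, and the lone NS library assumed to vary like the WS libraries, no model of any kind was called by edgeR, and 92 and 52 pseudo models had an unadjusted p under 0.05. The adjusted p-values of the 11 called pseudo models then lay between 0.0591 and 0.323. Their directions were kept, and for all but Jcr4S04260.30, Jcr4S00989.30 and Jcr4S11713.20 the log2FC moved by less than a 1.5-fold change. Without WS replicate 1, 19 pseudo models rose and 5 fell (3.75% of those tested, against 7.68% of the models with no note), and without WS replicate 2 the numbers were 17 and 22 (6.09% against 14.5%).

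**Figure D3:**
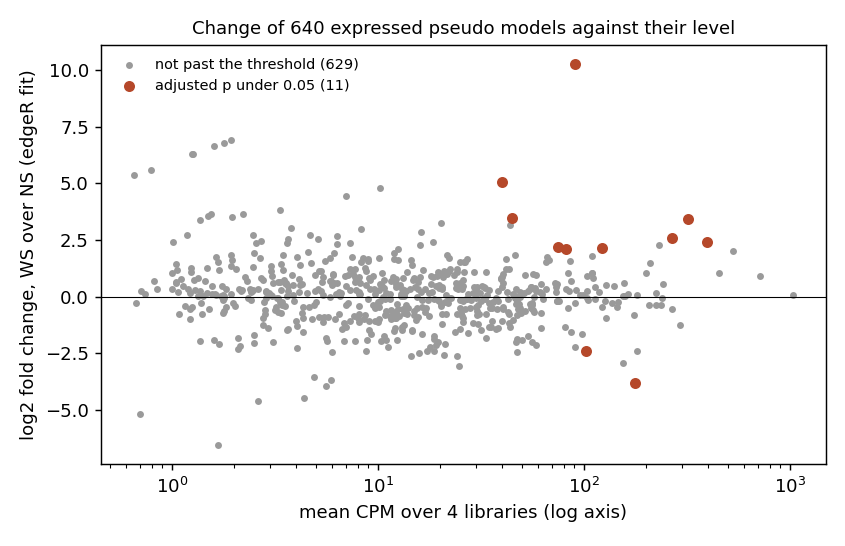
Log2 fold change of each of the 640 expressed pseudo models (vertical axis, WS over NS, fitted by edgeR) against its mean CPM over 4 libraries (horizontal axis, log scale), with the 11 models past an adjusted p of 0.05 in red. The called models all have a mean of at least 40.0 CPM.

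In the quasi-likelihood test, how often a pseudo model was called followed its level. The quasi-likelihood test called no pseudo model among the 178 with a mean under 5 CPM or the 217 from 5 to under 20 CPM, where it called 1 of 2540 and 82 of 4206 models with no note (0.0394% and 1.95%). In these 2 classes 14 and 18 pseudo models had an unadjusted p under 0.05 (7.87% and 8.29%, against 10.5% and 15.9% of the models with no note). The likelihood ratio test of edgeR called 18 of 178 and 12 of 217 pseudo models, against 345 of 2540 and 512 of 4206 with no note. By that test the share called was not smaller in the lower class, in either kind. DESeq2 called 0 and 8 pseudo models, against 37 and 333 with no note. In the lower class it gave an adjusted p for 62 of the 178 and 998 of the 2540. Limma voom called 0 and 0, against 10 and 56 with no note. From 20 to under 100 CPM, 5 of 197 pseudo models (2.54%) and 5.72% of the models with no note were called. At 100 CPM or more, 6 of 48 pseudo models (12.5%) and 14.4% of the models with no note were. A change of at least 2-fold in either direction was fitted for 234 pseudo models (36.6%) and for 43.5% of the models with no note.

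**Figure D4:**
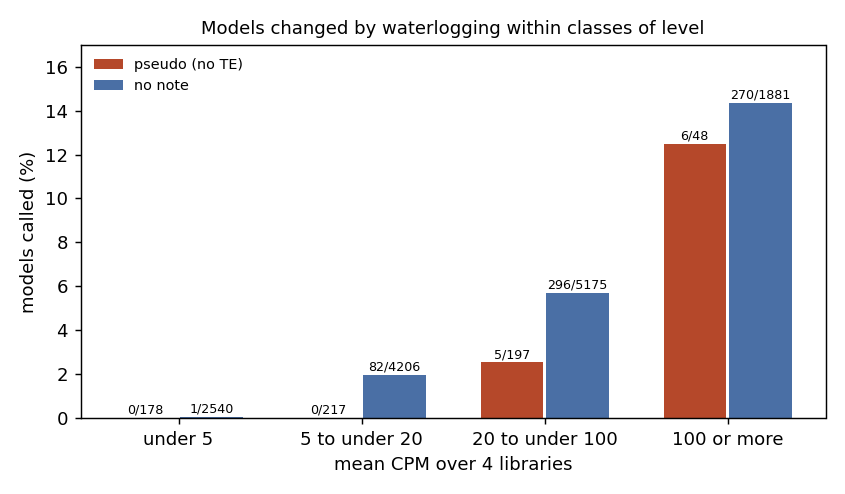
Share of models called (vertical axis, percent with an adjusted p under 0.05 in the comparison of WS with NS) within classes of mean CPM over 4 libraries (horizontal axis), for pseudo models and models with no note, with the called and tested models above each bar. In the highest class 6 of 48 pseudo models (12.5%) and 14.4% of the models with no note were called.

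The 11 called members were of all structures, with 6 of 5 or more exons, 2 of 2 to 4 exons and 3 of a single exon. From here on, levels of single models in CPM are taken over the TMM-scaled library size. The cut for expression, the classes of level and CPM per kb use the unscaled library total. The largest rise was that of Jcr4S04260.30, noted as short, pseudo and partial, with 3 exons and 297 bases on the plus strand of scaffold Jcr4S04260 from 13496 to 14307. It had 1 read and no read in NS replicates 1 and 2, and 904 and 366 reads in WS. It was all but silent in NS and reached 241 and 154 CPM in WS. With 1270 reads in WS and 1 read in NS, the ratio at TMM-scaled library sizes was 1627, with a 95% exact interval for counting error of 292 to 64319. The adjusted p was 0.00257 (edgeR). The nearest model, at 5710 bases on the opposite strand, had 1 read in all, and no model lies on the other side.

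Jcr4S00903.10, noted as pseudo alone, has 7 exons and 1116 bases spread over 6409 to 18804 of scaffold Jcr4S00903. It had 426 and 68 reads (NS) and 3019 and 1096 reads (WS), or means of 58.3 ± 9.72 (NS) and 632 ± 242 CPM (WS), with SD over 2 libraries each. Both WS libraries were far above both NS libraries, with a log2FC of 3.43 (SE 0.50, adjusted p = 0.00717 from edgeR). The next model on the same strand, 2328 bases away, was not called (log2FC -0.71). Jcr4S04448.10, the other called member noted as pseudo alone, has 13 exons on the minus strand of scaffold Jcr4S04448 from 9371 to 18125. It had 166 and 52 reads (NS) and 477 and 356 reads (WS), and rose from 32.4 ± 9.85 to 138 ± 16.2 CPM (log2FC 2.11, SE 0.49, adjusted p = 0.0452). This was the least firm of the calls, lost under 5 of 11 other settings that kept all libraries (adjusted p up to 0.0660).

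Jcr4S00011.190 is the called member whose identity is known best. Its best Arabidopsis match is the Dicer homolog DCL1, the RNase that cuts microRNA precursors in the nucleus and without which Arabidopsis embryos die. The model has 20 exons and 5944 bases of exon on the plus strand of scaffold Jcr4S00011 from 130974 to 142820, and its length is not a multiple of 3. It had 320 and 61 reads (NS) and 750 and 525 reads (WS). Its levels of 48.9 and 46.1 CPM in NS and 200 and 221 CPM in WS agreed closely within treatments. The change had a log2FC of 2.14 (SE 0.44, adjusted p = 0.0295 from edgeR), a call lost at equal depth (adjusted p = 0.0550). The model at 836 bases on the opposite strand was not called (log2FC 0.78, adjusted p = 0.718).

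Jcr4S00043.150 is a single exon of 151 bases on the plus strand of scaffold Jcr4S00043 from 68145 to 68295. It had 481 and 118 reads (NS) and 1775 and 1186 reads (WS), and rose from 81.4 ± 11.1 to 486 ± 19.0 CPM (log2FC 2.58, SE 0.44, adjusted p = 0.0140). The next model on the same strand, Jcr4S00043.160, 1531 bases further on and with no note, had 4012 and 894 reads (NS) and 15988 and 9841 reads (WS) and was up-regulated as well (log2FC 2.70, SE 0.44, adjusted p = 0.0110). The reads of the pseudo model were 11.99% and 13.2% of those of its neighbour in NS and 11.1% and 12.1% in WS, a nearly constant proportion. Whether both belong to one transcript was not tested.

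Jcr4S01045.120 and Jcr4S00989.30 are the other single-exon members that rose. Jcr4S01045.120 (620 bases, scaffold Jcr4S01045 from 51820 to 52439) was abundant in both treatments, with 1054 and 140 reads (NS) and 2950 and 1485 reads (WS). It rose from 134 ± 39.1 to 705 ± 113 CPM (log2FC 2.40, SE 0.46, adjusted p = 0.0208). Jcr4S00989.30 (490 bases, minus strand of scaffold Jcr4S00989 from 14382 to 14871) was near silent in NS, with 25 reads and no read, and had 257 and 238 reads in WS. Its level rose from 1.91 ± 2.70 to 84.3 ± 22.5 CPM (log2FC 5.05, SE 0.90, adjusted p = 0.0166). Without NS replicate 1 it had no NS read left, and without NS replicate 2 the log2 fold change was 4.45. Both models stood apart from their neighbours, the nearest lying 6427 and 9158 bases away and neither being called.

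Jcr4S11713.20 and Jcr4S01846.50 have 5 and 15 exons. Jcr4S11713.20 (minus strand of scaffold Jcr4S11713 from 6072 to 10621) had 85 and 2 reads (NS) and 312 and 224 reads (WS). The NS replicates differed widely, at 13.0 and 1.51 CPM, yet both were below the 83.0 and 94.3 CPM of WS (log2FC 3.45, SE 0.78, adjusted p = 0.0421). Its log2 fold change was 5.83 without NS replicate 1 and 2.77 without NS replicate 2, and the call was lost with the total library size (adjusted p = 0.0513), with filterByExpr (0.0508) and with a filter on a mean count of 10 (0.0535). Jcr4S01846.50 (minus strand of scaffold Jcr4S01846 from 19239 to 25923) had 227 and 28 reads (NS) and 439 and 336 reads (WS). It rose from 27.9 ± 9.58 to 129 ± 17.4 CPM (log2FC 2.19, SE 0.50, adjusted p = 0.0426), and this call was lost with the total library size (adjusted p = 0.0586) and at equal depth (0.0593).

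Both down-regulated members were abundant in NS. Jcr4S01772.60 (2 exons, 815 bases, plus strand of scaffold Jcr4S01772 from 18394 to 19238) had 1517 and 507 reads (NS) and 20 and 94 reads (WS). It fell from 308 ± 107 to 22.4 ± 24.2 CPM (log2FC -3.79, SE 0.84, adjusted p = 0.0379), a call lost with filterByExpr (adjusted p = 0.0562) and with a filter on a mean count of 10 (0.0606). The WS replicates differed widely, at 5.32 and 39.6 CPM, and the log2FC was -2.93 with WS replicate 1 left out and -5.88 with WS replicate 2 left out. The models on both sides of it also had few reads in WS. Jcr4S01772.50, 2976 bases away on the opposite strand, was down-regulated from 1904 and 370 reads to 27 and 66 reads (log2FC -4.05, SE 0.67, adjusted p = 0.0121). Jcr4S01772.70, 2804 bases away on the same strand, had 310 and 170 reads (NS) and none and 16 reads (WS) (adjusted p = 0.0641).

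Jcr4S00169.150 (12 exons, 1608 bases, minus strand of scaffold Jcr4S00169 from 71073 to 77576) had 1135 and 200 reads (NS) and 90 and 89 reads (WS). It fell from 162 ± 15.8 to 30.7 ± 9.56 CPM (log2FC -2.41, SE 0.49, adjusted p = 0.0266, and 0.0552 at equal depth). Its neighbours had at most 3 reads in a library. Of the models flanking the 11 called members, 11 were expressed and 2 of these were called. The models flanking the called models with no note were called in 62 of 649 cases (9.55%).

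**Figure D5:**
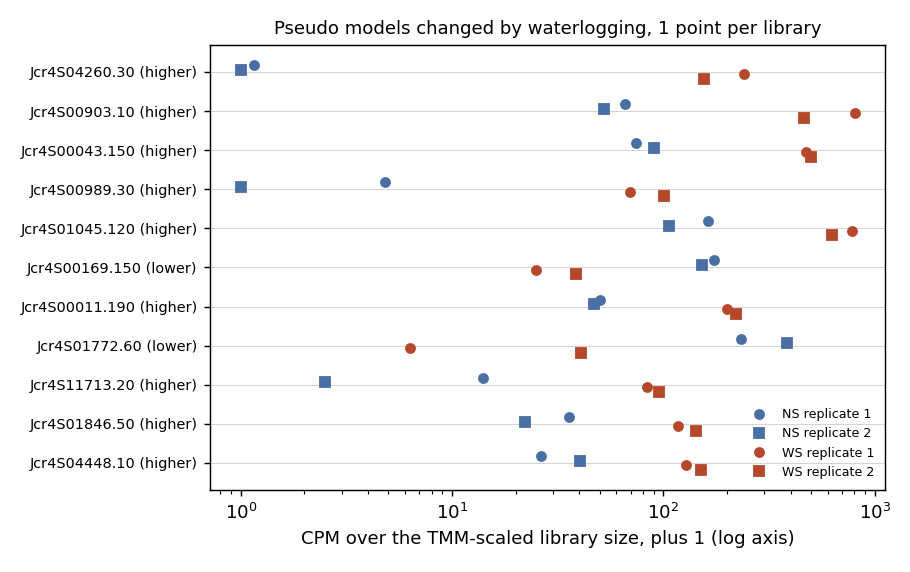
Level of the 11 pseudo models past an adjusted p of 0.05 in each library (horizontal axis, CPM over the TMM-scaled library size plus 1, log scale; 1 row per model, NS in blue, WS in red, circles for replicate 1 and squares for replicate 2). In every row the 2 WS points lie on one side of the 2 NS points, at higher levels in 9 rows and at lower levels in the rows of Jcr4S00169.150 and Jcr4S01772.60.

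Just short of the threshold the balance was the other way. Of the 5 members next in order of adjusted p, only Jcr4S00345.160 was higher in WS, with 310 and 162 reads (NS) and 1866 and 738 reads (WS) (log2FC 2.26, adjusted p = 0.0583). Jcr4S02337.10 had 2211 and 318 reads (NS) and 101 and 197 reads (WS) (adjusted p = 0.0561). Jcr4S06071.20, with 9 exons, had 850 and 199 reads (NS) and 65 and 103 reads (WS) (adjusted p = 0.0609). In all 5 the libraries of the treatments did not overlap on the TMM scale, and DESeq2 called all 5 (adjusted p from 0.0022 to 0.0195). Jcr4S11886.10 had 466 and 131 reads (NS) and 69 and 57 reads (WS) (adjusted p = 0.0634), and Jcr4S00137.150 had 1304 and 414 reads (NS) and 38 and 138 reads (WS) (adjusted p = 0.0644).

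At an unadjusted p under 0.05 the direction differed by structure. Among the 307 expressed pseudo models with at least 5 exons, 19 were higher and 34 lower in WS (6.19% and 11.1%), and in the models with no note of that class the shares were 8.78% and 9.97%. Among the 333 with fewer exons, 27 were higher and 10 lower (8.11% and 3.00%), against 10.9% and 13.2% of the models with no note. Models noted as short alone had 9.67% and 5.08% in that class, and partial models without pseudo or TE had 7.64% and 6.81%. The lean to higher levels was thus not particular to pseudo models. With 5 or more exons the partial models had 8.08% and 8.27%. The median log2 fold changes were -0.04 and 0.20 in these 2 classes of pseudo models. These are counts, and the difference between the classes was not tested.

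Few members were present in one treatment alone. Of the expressed pseudo models, 9 had no read in either library of one treatment, 7 of them in NS and 2 in WS (1.09% and 0.313%), and none had more than 31 reads in a library. Among models with no note the shares were 0.283% and 0.848%, and among all models tested 0.391% and 0.844%. Against a floor of 3 counts per library they were between at least 1.05-fold and at least 3.09-fold apart, and none was called by the quasi-likelihood test (adjusted p from 0.114 to 0.273, and an unadjusted p under 0.05 for 8). The likelihood ratio test called all 9, limma voom called 0, and DESeq2 gave none of them an adjusted p. Of the 156 such models with no note, the likelihood ratio test called all 156, the quasi-likelihood test 18 and limma voom 26. DESeq2 called 49 of them and gave 50 an adjusted p. They passed the filter only through the treatment in which they had reads. Jcr4S01880.120, a single exon of 354 bases, was the only member with at least 10 reads in both libraries of one treatment and none in the other. It had 10 and 12 reads in WS, at least 2.83-fold higher than the floor.

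What the pseudo models correspond to is known for few. Of the 665 expressed models whose functional bin was at hand, a shortened list, 20 were pseudo models, of which 13 had a match in Arabidopsis or rice and 7 had none. The matched models had between 3 and 63 exons (median 10), and those with no match had between 1 and 3 exons (median 2). Besides the DCL1 match, the quasi-likelihood test on all 4 libraries called none of the 20.

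Jcr4S00033.190, which matches a PHD finger protein of the kind that reads histone marks, had 1130 and 239 reads (NS) and 603 and 503 reads (WS). With 177 ± 5.57 (NS) and 186 ± 36.3 CPM (WS) it had the highest CPM of them. It overlaps Jcr4S00033.180, another pseudo model on the same strand, which had between 16 and 33 reads per library. Jcr4S00014.120 matches a calcium-dependent lipid-binding protein and is the longest, with 63 exons and 12961 bases. It had 1070 and 189 reads (NS) and 752 and 276 reads (WS), or 153 ± 14.7 and 158 ± 59.3 CPM. Jcr4S00025.180 matches the transcription factor SPL12, one of the SQUAMOSA promoter-binding-like proteins. Its level was 109 ± 27.2 CPM in NS and 127 ± 10.4 CPM in WS. In each of the 3 the libraries of the treatments overlapped.

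Jcr4S00009.90 matches HAP13, the medium subunit of a clathrin adaptor that sorts cargo at the trans-Golgi network. It measured 48.5 and 52.2 CPM (NS) and 58.0 and 73.7 CPM (WS), so both WS libraries were above both NS libraries, without a call (adjusted p = 0.725). Jcr4S00024.100, which matches an RNA helicase of the kind that feeds RNA to the exosome, stood at 47.5 ± 0.157 (NS) and 45.7 ± 12.2 CPM (WS). Jcr4S00037.210, matching a ubiquitin-like protein, had 14.7 ± 12.2 and 30.1 ± 14.6 CPM. In the last 2 the libraries of the treatments overlapped.

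The other 3 had lower means in WS, with no call. Jcr4S00003.460 matches a MATE transporter, a family that exports small molecules from the cell or into the vacuole, and had 215 and 61 reads (NS) and 22 and 48 reads (WS) (log2FC -1.61, SE 0.72, adjusted p = 0.255 from edgeR, and 0.0317 with WS replicate 2 left out). Jcr4S00021.290 matches an Abl interactor-like protein of rice, a family that belongs to the WAVE complex of actin branching, and had 326 and 24 reads (NS) and 38 and 31 reads (WS) (log2FC -1.58, SE 0.70, adjusted p = 0.248). In these 2 both WS libraries were below both NS libraries on the TMM scale. Jcr4S00035.80 matches the mitochondrial dehydrogenase that completes the breakdown of proline to glutamate. It measured 27.4 and 67.3 CPM (NS) and 29.3 and 14.3 CPM (WS), so the treatments overlapped (adjusted p = 0.406).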

How the data were processed

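The authors filtered and trimmed Ion Proton reads, mapped them with TMAP to Jatropha genome release 4.5 and counted the reads of each model (HTSeq). The deposited values used are raw counts of 57437 models in 4 libraries. The deposited annotation gave positions, notes and a prediction score. The deposited comparison (log2 fold changes, likelihood ratios, p-values and TMM-scaled CPM) was not used. Versions, strand setting and treatment of introns and of multiply mapped reads are not given in the sources used here.

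Members and lists were chosen with earlier results of these data known. Models that reached 1 CPM in 2 or more libraries were compared by the quasi-likelihood test of edgeR (version 4.0.16, R 4.3.3; TMM scaling, two-sided, Benjamini-Hochberg adjusted p under 0.05). Standard errors were derived from the F statistic. DESeq2 1.42.0 and limma 3.58.1 served as alternatives. Summaries were made in Python 3.11.15 (scipy 1.17.1, pandas 2.3.3). Intervals and the floor of 3 counts cover counting error only. The labels call the replicates independent but do not give the plants in each pool, and p-values measure the spread between these libraries.

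Named models are every pseudo model past the threshold, the 10 highest by CPM per kb, the 5 next by adjusted p, every one with at least 10 reads in both libraries of one treatment and none in the other, and the 10 most abundant ones with a functional bin in the supplementary rows at hand. Descriptions come from those rows, and no gene ID matched the RefSeq table used.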

Additional observations from a re-analysis of the deposited data

How the results depend on the processing

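Of the 11 calls, 5 held under all 11 other settings that kept all libraries. The number of pseudo models called was 38 with no filter (21 higher, 17 lower, 3.64% of 1044 tested, against 9.92% of models with no note), 51 with the likelihood ratio test (32 and 19, 7.97% against 11.9%), 37 with DESeq2 (22 and 15, 5.78% against 10.6%), 28 at an adjusted p under 0.1 (15 and 13, 4.38% against 8.56%), 90 at an unadjusted p under 0.05, and 2 of 34 for models noted as pseudo alone. It was between 0 and 39 with 1 library left out. The share called higher was 9 of 11, against 6 of 13 with the total library size and 10 of 16 with limma voom. It was 6 of 8 at equal depth and 7 of 8 with filterByExpr. Among called models with no note, 53.9% were higher, against 42.9% with the total library size and 47.2% with limma voom. These shares were 56.7% at equal depth and 55.8% with filterByExpr. With the total library size 2.03% of pseudo models were called, against 4.93% of models with no note. The values were 2.5% against 5.47% (limma voom), 1.27% against 3.25% (equal depth) and 1.48% against 4.5% (filterByExpr). The replicate block gave 34 calls (19 and 15, 5.31% against 10.6%), all 11 among them, but the replicate numbers only name the samples (correlation of deviations 0.0867 over 17410 models).

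The share expressed, 23.8%, was 14.1% with TE models added, 51.5% for pseudo alone, 17.8% for 1 CPM in all 4 libraries, 26.1% for 0.5 CPM, 17.5% for 5 CPM, 38.8% for any read, 26.3% per kb, and 22.1% to 22.9% with 1 library left out. The median level, 12.6 CPM, was 19.3 for pseudo alone, 15.2 per kb of exon, 5.97 per kb of span, 0 over all pseudo models and 12.3 to 14.5 with 1 library left out. The difference in the share of counts, -0.0275 percentage points, was 0.0245 for pseudo alone.

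Some small log2 fold changes of models that were not called changed sign. With the total library size they were -0.15 for Jcr4S00958.30, -0.10 for Jcr4S01360.20, -0.16 for Jcr4S02852.30, -0.16 for Jcr4S00033.190, -0.19 for Jcr4S00014.120 and -0.010 for Jcr4S00025.180. For Jcr4S00014.120 the value was -0.0044 with limma voom, -0.0062 at equal depth and -0.0015 with the replicate block, and for Jcr4S00024.100 it was 0.026 at equal depth. With 1 library left out the values ranged from -0.066 to 0.26 for Jcr4S00958.30, from -0.21 to 1.81 for Jcr4U35837.10, from -0.66 to 0.83 for Jcr4S01360.20, from -0.34 to 0.63 for Jcr4S02852.30, from -0.17 to 0.29 for Jcr4S00033.190, from -0.37 to 0.35 for Jcr4S00014.120, from -0.013 to 0.50 for Jcr4S00025.180 and from -0.33 to 0.16 for Jcr4S00024.100. The cause was not tested.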

Other observations

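Among the 116 expressed pseudo models also noted as short, 44 (37.9%) had a higher TMM-scaled level in replicate 2 than in replicate 1 in both treatments, and 22 (19.0%) were higher in replicate 1 in both. Among the 524 other expressed pseudo models the numbers were 107 (20.4%) and 163 (31.1%), and among models with no note the shares were 22.2% and 30.4%. The deeper library is replicate 1 in both treatments, and the part of depth in this pattern was not tested. Both WS libraries were above both NS libraries in 154 of the 640 expressed pseudo models (24.1%) and below both in 124 (19.4%), against 25.4% and 28.6% of the models with no note.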
